A study of Mus musculus with 48 samples.

Results

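The 10 genes described here mark the endothelium of bone and marrow. They are Plvap, Flt4, Stab1, Stab2, Kdr, Pecam1, Cdh5, Emcn, Flt1 and Sox17, taken by name from the 29801 genes of the deposited table, and all 10 were measured well enough to be tested among 13590 genes. Marrow blood leaves through sinusoids, wide vessels with a fenestrated, leaky wall through which blood cells enter the circulation and which take up waste from the plasma. Arterioles bring the blood in and carry a tighter endothelium with a Notch and Sox17 programme. Both vessel types respond to vascular endothelial growth factors (VEGF), which act through the receptor kinases Flt1, Kdr and Flt4.

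RNA of whole tibiae from 12 male C57Bl6J mice was compared, 3 in each of 4 groups that differed in age and in diet. When the 8 weeks of diet began, young mice were 10 weeks old by the series description and aged mice 15 to 18 months. The bones were taken at the end of the diet, when the mice were older by that time. Calorie-restricted (CR) mice received a fortified NIH-31/NIA diet for 8 weeks, cut by 10% in week 1, by 20% in week 2 and by 40% from week 3, and control (AL) mice ate the NIH-31 diet freely. The question was which genes of the bone differ between CR and AL mice at either age. Levels are FPKM, fragments scaled by the length of the transcript and by the size of the library, so they can be compared between genes, and the authors quantile normalized them over the mice. Adherent muscle was removed by the protocol, but muscle transcripts were still measured in every mouse. Whole bone also holds marrow, bone and fat as well as vessels. A higher value can therefore come from more endothelial cells, from more RNA per cell or from other cells that express the gene. Because the levels are relative to the library, it can also come from a smaller share of other RNA. These sources cannot be told apart here.

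All 10 genes matched protein-coding genes of the GENCODE annotation on GRCm38. Those on which the results turn are Plvap at chr8:71497765-71511752 on the minus strand, Flt4 at chr11:49609263-49652739 on the plus strand, Stab2 at chr10:86841198-87008025 on the minus strand and Pecam1 at chr11:106654217-106750628 on the minus strand. Promoter windows of 6 of the 10 genes were matched in RefSeq (GRCm38.p6), and those of Plvap, Pecam1, Cdh5 and Sox17 were not matched. They run from 250 bases before to 50 bases after the start listed there. That start can differ from the GENCODE one, and the Flt4 window lies inside the GENCODE span given above. The windows of Stab2, Flt4 and Emcn are shown because, of the genes with a matched window, these 3 had a higher mean with CR and an unadjusted p under 0.05 in young mice. Those of Stab1, Kdr and Flt1 are not shown. The letters AGGAAG, which hold the core that ETS factors such as Erg and Fli1 bind, are in capitals, read on either strand, so that CTTCCT marks the same letters on the other strand.
Stab2, chr10:87007893-87008192, minus strand: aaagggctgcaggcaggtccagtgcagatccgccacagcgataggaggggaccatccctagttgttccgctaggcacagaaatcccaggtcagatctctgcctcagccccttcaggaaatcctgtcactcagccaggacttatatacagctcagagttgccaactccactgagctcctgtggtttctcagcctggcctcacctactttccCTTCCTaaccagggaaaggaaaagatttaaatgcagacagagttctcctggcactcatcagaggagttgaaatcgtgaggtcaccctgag
Flt4, chr11:49609429-49609728, plus strand: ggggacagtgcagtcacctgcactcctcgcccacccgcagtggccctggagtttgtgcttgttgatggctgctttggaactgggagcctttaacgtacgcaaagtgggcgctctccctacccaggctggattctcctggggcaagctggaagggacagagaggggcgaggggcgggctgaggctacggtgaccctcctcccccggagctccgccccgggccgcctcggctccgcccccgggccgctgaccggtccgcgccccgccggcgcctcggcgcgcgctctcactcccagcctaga
Emcn, chr3:137340828-137341127, plus strand: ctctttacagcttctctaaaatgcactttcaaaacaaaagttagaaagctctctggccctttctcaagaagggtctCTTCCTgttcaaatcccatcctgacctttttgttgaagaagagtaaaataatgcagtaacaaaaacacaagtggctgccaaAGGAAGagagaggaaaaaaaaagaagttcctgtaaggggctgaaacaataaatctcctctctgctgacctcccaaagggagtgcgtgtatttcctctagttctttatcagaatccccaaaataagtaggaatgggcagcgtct
AGGAAG was found in 4 of the 6 windows, those of Stab1, Stab2, Emcn and Flt1, and in 35.4% of all 32851 promoter windows in the RefSeq set. The window of Flt4 held none, although it held 2 of the shorter GGAA, which occurs in 96% of all windows. The GC content ran from 41% in Emcn to 70.7% in Flt1, with 70.3% in Flt4 and 53% in Stab2.

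The order of the levels ran from Plvap and Pecam1 at the top to Sox17 at the bottom. Over the 12 mice Plvap, the protein of the diaphragms that span endothelial pores, had a mean level of 18.2 FPKM, and Pecam1, an adhesion protein of endothelium, platelets and leukocytes, had 16.5 FPKM. Plvap was above Pecam1 in 7 of 12 mice, so this first pair of the order was not separated. The scavenger receptors Stab1 and Stab2 followed at 10.9 and 6.40 FPKM, and Stab1 was the higher in 12 of 12 mice. Emcn, a sialomucin of sinusoidal and capillary endothelium, and Cdh5, the cadherin of endothelial junctions, lay at 5.12 and 4.90 FPKM and kept this order in 8 of 12 mice only. Kdr had 4.04 FPKM, Flt4 2.48 FPKM, Flt1 1.46 FPKM and Sox17, an arterial transcription factor, 1.05 FPKM. Kdr was above Flt4 and Flt4 above Flt1 in every mouse, and Flt1 was above Sox17 in 11 of 12.

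**Figure D1:**
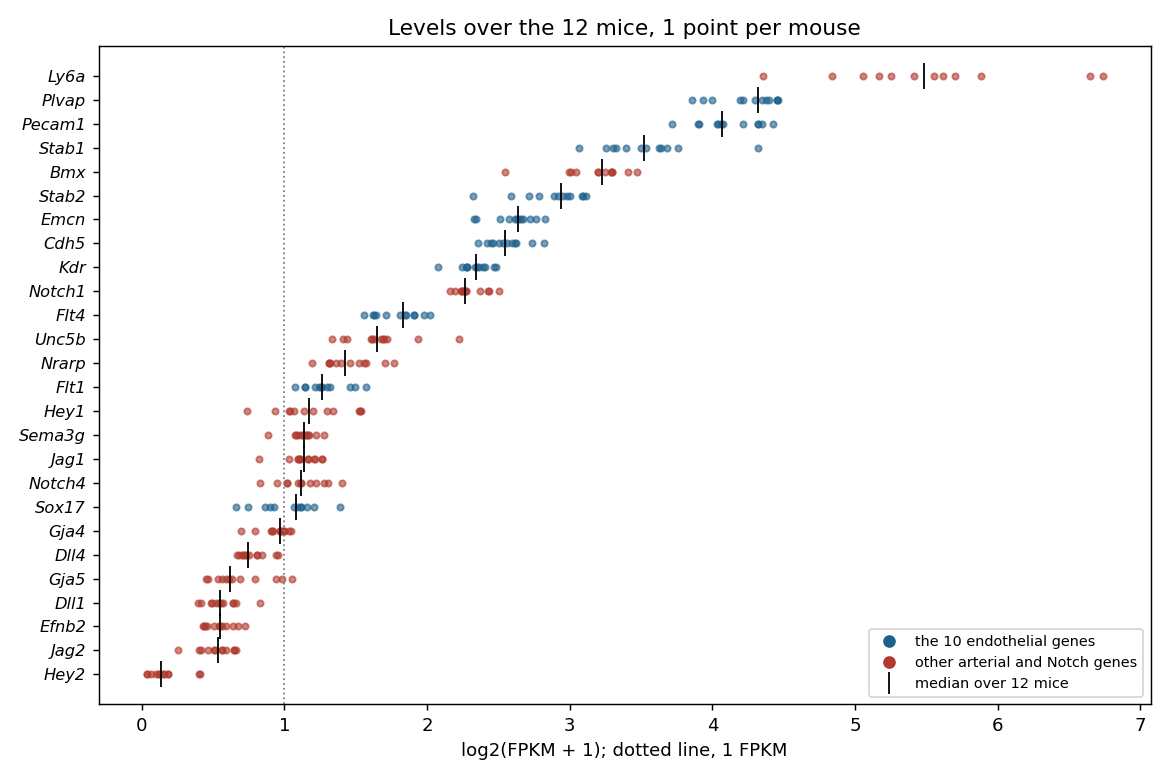
Levels in each of the 12 mice as log2(FPKM + 1), with 1 point per mouse and a black mark at the median, for the 10 genes (blue) and for a list of 16 other arterial and Notch genes (red). The red genes Efnb2, Dll4, Gja4, Gja5 and Hey2 have medians to the left of the dotted line at 1 FPKM, while all 10 blue genes have medians to the right of it, with Sox17 nearest to it.

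Of 16 other arterial and Notch genes, 9 reached a mean of 1 FPKM. The highest were Ly6a, which stem cells share, at 50.1 FPKM, the kinase Bmx at 8.10 FPKM and the receptor Notch1 at 3.94 FPKM. Several genes that define arteries were lower. The ephrin Efnb2, by which arterial cells are defined, averaged 0.464 FPKM, the Notch ligand Dll4 0.718 FPKM, and the arterial connexins Gja4 and Gja5 0.918 and 0.631 FPKM. The lymphatic regulator Prox1 averaged 0.0148 FPKM and was listed at 0 in some mice, while of the other lymphatic markers Pdpn averaged 0.959 FPKM, Reln 1.24 FPKM and Sned1 1.06 FPKM, and Ccl21a, listed under 2 identifiers, 0.733 and 0.751 FPKM. Lymphatic vessels also express Flt4, and their part in its level was not tested. The 14 other sinusoidal and scavenger genes were all above the filter, and ranged from Lyve1 at 1.23 FPKM and Gpr182 at 2.25 FPKM to Vcam1, which macrophages and stromal cells share, at 107 FPKM.

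In young mice, Plvap, Flt4, Stab2, Cdh5 and Emcn had higher mean levels with CR and Pecam1 a lower one, but none of the 10 genes passed the test over all genes. Genes were called at an adjusted p under 0.05 in limma, which 0.0662% of all tested genes reached in this comparison. At an unadjusted p under 0.05, 5 of the 10 were higher and 1 was lower. That threshold was passed by 5.79% of the 13590 tested genes as higher and by 5.24% as lower. Groups that did not overlap were found for 4 of the 10 as higher and 1 as lower, against 10.1% and 9.38% of all genes. The median log2 fold change was 0.16 over the 10 genes and 0.01 over all genes. The genes were chosen with earlier results of these mice known, so the counts describe them and are not a test.

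Plvap was the clearest of the 10 by size. It was measured at 13.5, 15.0 and 17.3 FPKM in young AL mice and at 20.9, 20.9 and 20.1 FPKM in young CR mice. All CR mice lay above all AL mice, with means of 20.6 ± 0.451 (SD, n = 3) and 15.3 ± 1.93 (SD, n = 3). The log2 fold change was 0.42 ± 0.12 (SE), a fold of 1.33, with an adjusted p of 0.266 in limma. In aged mice the values were 17.5, 14.3 and 21.0 FPKM with AL and 18.7, 19.3 and 19.8 FPKM with CR. The aged AL mice spread around the narrow CR group, and the log2 fold change was 0.14 ± 0.12 (adjusted p = 0.846). It was 0.0031 without AL mouse 14 and 0.27 without AL mouse 15.

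**Figure D2:**
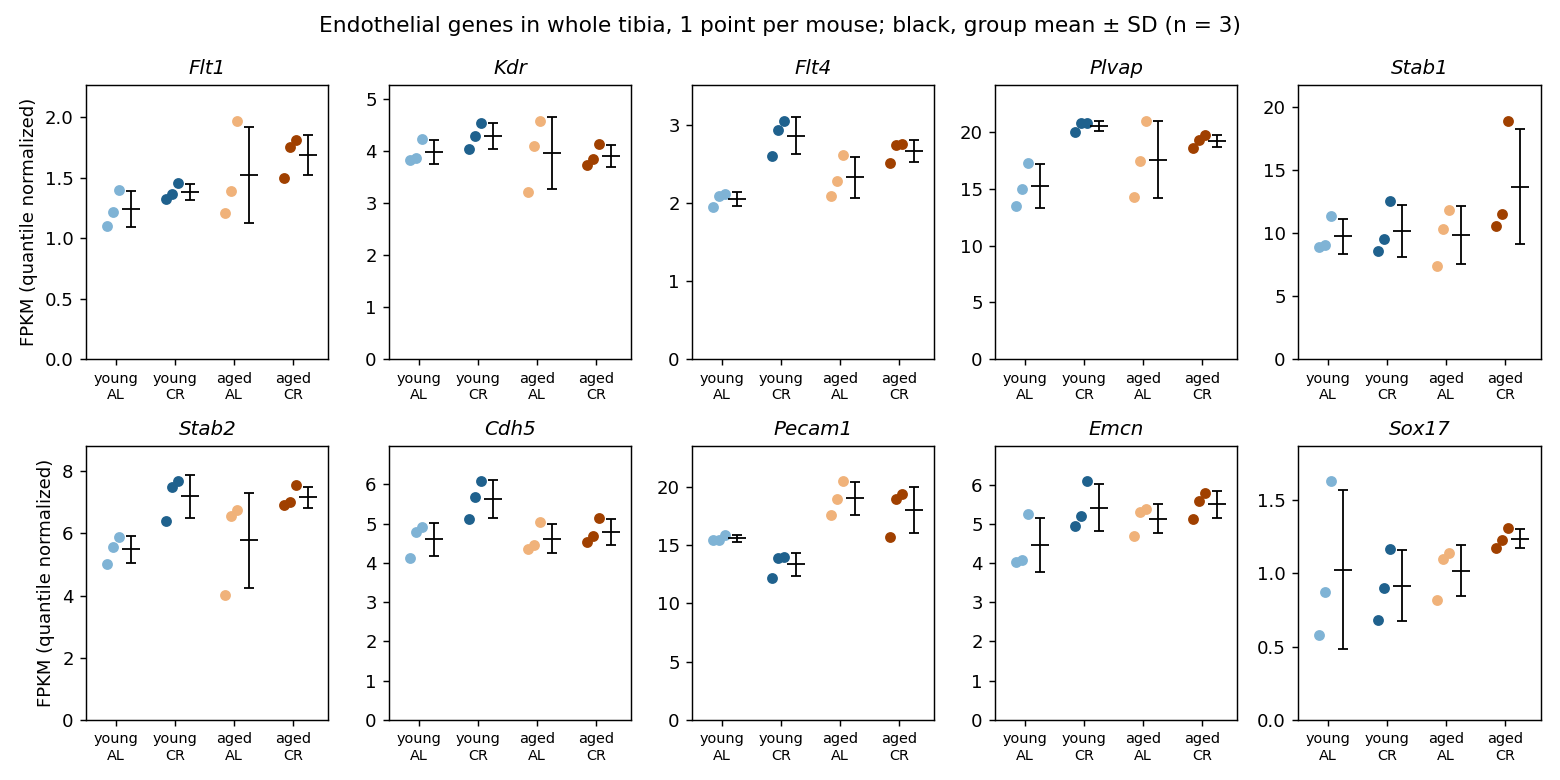
FPKM of the 10 genes, 1 coloured point per mouse, with the mean ± SD of the 3 mice in black, for the 4 groups. The young CR points lie above all young AL points for Plvap, Flt4, Stab2 and Cdh5 and below them for Pecam1, and both aged groups of Pecam1 lie above the young group on the same diet.

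Of the VEGF receptors, Flt4, the receptor of Vegfc, had the largest difference with diet. Young AL mice had 1.95, 2.09 and 2.12 FPKM and young CR mice 2.597, 3.05 and 2.94 FPKM. The groups did not overlap, and the log2 fold change was 0.34 ± 0.09, with an adjusted p of 0.209. Aged mice had 2.62, 2.08 and 2.28 FPKM with AL and 2.75, 2.51 and 2.75 FPKM with CR, which overlapped in 1 mouse of each group (0.14 ± 0.09, adjusted p = 0.738). Kdr, the main signalling receptor of Vegfa, ran from 3.84 to 4.24 FPKM in young AL and from 4.05 to 4.55 FPKM in young CR mice, a log2 fold change of 0.09 with a 95% interval from -0.14 to 0.31. In aged mice its interval ran from -0.23 to 0.22, around a difference of -0.01. Flt1, which binds VEGF and holds it away from Kdr, overlapped between diets at both ages, with log2 fold changes of 0.09 in young and 0.10 in aged mice. The level of Flt4 relative to Kdr was 0.492 to 0.552 in young AL mice and 0.641 to 0.685 in young CR mice. In aged mice this ratio was 0.557 to 0.646 with AL and 0.652 to 0.735 with CR, so that the CR mice were the higher at both ages. The ratio was chosen after its values were seen and was not tested.

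Of the scavenger receptors, Stab2, a hyaluronan receptor restricted largely to sinusoids, was 5.88, 5.01 and 5.57 FPKM in young AL mice and 6.40, 7.68 and 7.51 FPKM in young CR mice. In aged mice it was 6.56, 4.01 and 6.76 FPKM with AL and 7.02, 6.91 and 7.55 FPKM with CR. At both ages each CR mouse was above each AL mouse, a pattern that 1.53% of all genes shared. The log2 fold change was 0.34 ± 0.15 in young and 0.29 ± 0.15 in aged mice (adjusted p = 0.439 and 0.688). The aged difference rested largely on AL mouse 14, and without this mouse it was 0.09.

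Stab1, which macrophages carry as well as sinusoids, overlapped between diets at both ages. It was 11.3, 8.89 and 9.02 FPKM in young AL and 8.56, 12.5 and 9.52 FPKM in young CR mice, with a log2 fold change of 0.05 and a 95% interval from -0.43 to 0.54. Aged AL mice had 10.3, 7.39 and 11.9 FPKM and aged CR mice 18.9, 10.6 and 11.5 FPKM. The log2 fold change in aged mice was 0.41 ± 0.22 (adjusted p = 0.706), and CR mouse 5 at 18.9 FPKM stood apart from the other two. That mouse also had the highest level of a list of 13 marrow macrophage markers, 0.91 above the 12-mouse mean on the log2 scale. The summed level of the 13 markers was 844 to 1406 FPKM in aged CR and 627 to 1076 FPKM in aged AL mice. All 13 had a higher mean with CR in aged mice, and 6 passed at an unadjusted p under 0.05, against 4.50% of all genes as higher. The part of these cells in the Stab1 level was not tested. Once aged mice 14 (AL) and 5 (CR) were left out, the aged difference of Stab1 was -0.0033.

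Of the junction genes, Cdh5 was 4.90, 4.12 and 4.78 FPKM in young AL and 5.12, 6.07 and 5.67 FPKM in young CR mice. The groups did not overlap (log2 fold change 0.24 ± 0.09, adjusted p = 0.380), but in aged mice it was 4.34 to 5.04 FPKM with AL and 4.52 to 5.15 FPKM with CR, a difference of 0.04 ± 0.09. Emcn was 4.02, 5.25 and 4.08 FPKM in young AL and 6.08, 4.94 and 5.21 FPKM in young CR mice. AL mouse 10 lay within the CR values, and the log2 fold change was 0.24 ± 0.11 (adjusted p = 0.442). Sox17 was close to the lower limit of what was tested and scattered from 0.580 to 1.63 FPKM within young AL mice alone. Its log2 fold change with CR was -0.06 in young mice and 0.15 in aged ones, with a 95% interval of -0.43 to 0.32 in the former. The 3 aged CR mice, at 1.31, 1.23 and 1.17 FPKM, lay just above the aged AL mice at 1.10, 0.818 and 1.14 FPKM.

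**Figure D3:**
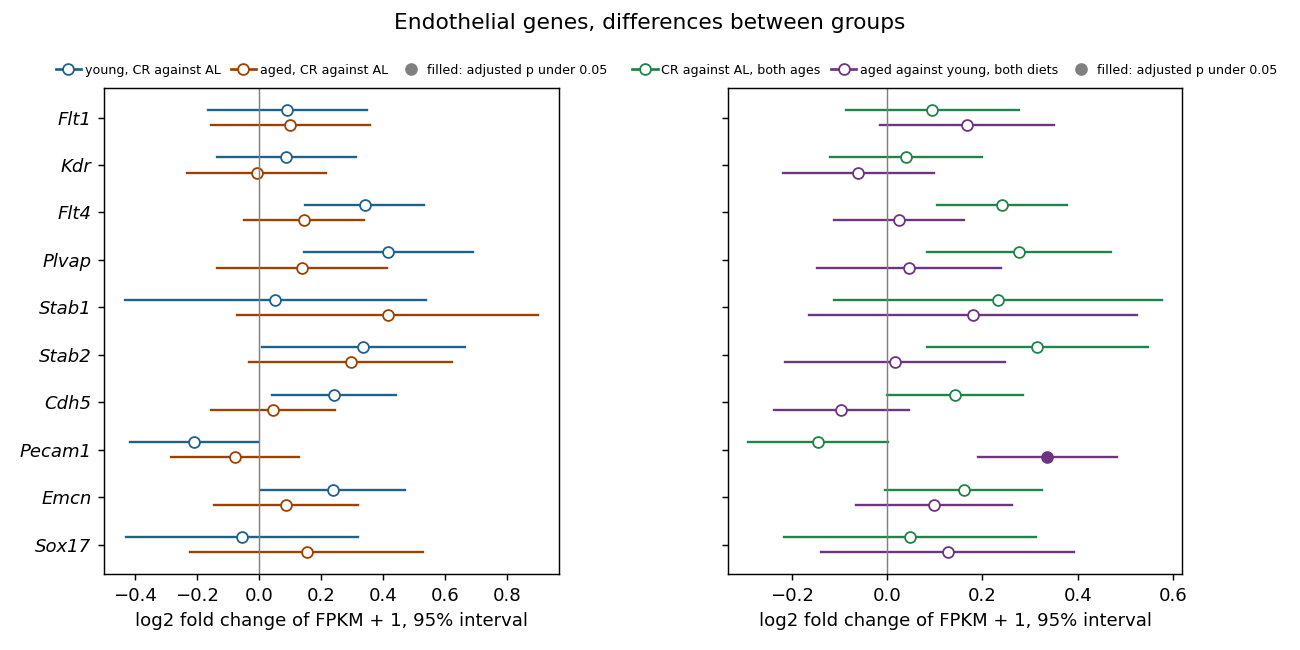
Log2 fold changes of FPKM + 1 with their 95% intervals for the 10 genes, for the diet effect at each age (left) and for diet and age over all 12 mice (right), where a filled point is an adjusted p under 0.05 in limma. Only Pecam1 for age is filled, and the young intervals of Flt4 and Plvap lie furthest to the right of 0 among the left-hand ones.

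Pecam1 had a lower mean with CR in young mice. Young AL mice had 15.9, 15.4 and 15.4 FPKM and young CR mice 13.9, 12.2 and 13.97 FPKM, a log2 fold change of -0.21 ± 0.09 (adjusted p = 0.442) with groups that did not overlap. The level of Plvap relative to Pecam1 was thus 0.849 to 1.12 in young AL mice and 1.44 to 1.71 in young CR mice, while in aged mice it was 0.697 to 1.11 with AL and 0.964 to 1.23 with CR. This ratio was chosen after its values were seen. Pecam1 is also abundant on platelets and their precursors. The 12 megakaryocyte and platelet markers listed had a lower mean in young CR than in young AL mice, 12 of 12. Of these, 3 were at an unadjusted p under 0.05, against 5.24% of all genes as lower. The summed level of the 12 markers was 942 to 1150 FPKM in young CR and 1408 to 1639 FPKM in young AL mice. In aged mice, by contrast, all 12 markers had a higher mean with CR, by a median log2 fold change of 0.34. None of the 12 was at an unadjusted p under 0.05, against 4.50% of all genes as higher. Pecam1 went the other way in aged mice, with -0.08 ± 0.09 (limma, adjusted p = 0.896). The diet effect differed between ages at an unadjusted p under 0.05 for 7 of the 12 markers, none of them called, against 4.23% of all genes. The part of platelet RNA in the Pecam1 level was not tested.

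In aged mice no gene of the whole table was called for diet (limma, 0% at an adjusted p under 0.05), while an unadjusted p under 0.05 was reached by 4.50% of all genes as higher and 3.22% as lower. None of the 10 genes passed at the unadjusted threshold either. Stab2 and Sox17 had aged groups that did not overlap, higher with CR, against 5.70% of all genes. The median log2 fold change of the 10 was 0.12, against -0.0044 over all genes. The difference between the diet effects of the ages was called for none of the 10, nor for any gene (0%, limma), and 4.23% of all genes but none of the 10 were at an unadjusted p under 0.05. For Plvap the aged effect minus the young one was -0.28 with a 95% interval from -0.66 to 0.11, and for Flt4 it was -0.20 with an interval from -0.47 to 0.08. A weaker response in aged mice was therefore not shown, nor was an equal one.

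Over both ages 9 of the 10 genes had a higher mean with CR and Pecam1 a lower one. None of the 10 was called, against 0.258% of all genes, and 4 were higher with an unadjusted p under 0.05, against 7.42% of all genes as higher and 6.45% as lower. These 4 were Stab2 with a log2 fold change of 0.32 ± 0.11, Plvap with 0.28 ± 0.09, Flt4 with 0.24 ± 0.06 and Cdh5 with 0.14 ± 0.06, whose adjusted p were 0.218, 0.193, 0.117 and 0.356. A weight per mouse for its quality, one of the alternatives, brought Plvap past the threshold in young mice (limma, adjusted p = 0.0416) and over both ages (0.0266). That weighted fit called 304 of all 13590 tested genes in young mice and 923 over both ages, against 9 and 35 in the main fit.

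Adipocyte markers were higher with CR. Of 12 listed markers 10 were tested, and all 10 had a higher mean with CR at either age. Over both ages 4 of them were called, against 0.258% of all genes, and the median log2 fold change was 1.21. Their summed level was 114 to 145 FPKM in young AL, 249 to 390 FPKM in young CR, 98.8 to 264 FPKM in aged AL and 274 to 512 FPKM in aged CR mice, and none of the tested ones was at 0. Across the 12 mice the list had a Pearson r of 0.80 with Plvap, 0.82 with Flt4 and 0.80 with Stab2, and after removal of the group means 0.60, 0.32 and 0.58. Emcn had 0.69, and 0.34 after that removal, whereas Pecam1 had -0.25, and -0.71 after it. The rest of the 10 genes lay between 0.16 for Sox17 and 0.50 for Cdh5 before the removal. These points share the normalization and the diet groups, and the part of fat tissue and its vessels in these levels was not tested. Mural cell markers had an r of 0.83 with Plvap, 0.74 with Cdh5 and 0.69 with Flt4. After removal of the group means these were 0.63, 0.66 and 0.18. The rest of the 10 genes lay between -0.18 for Pecam1 and 0.59 for Stab2 before the removal.

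**Figure D4:**
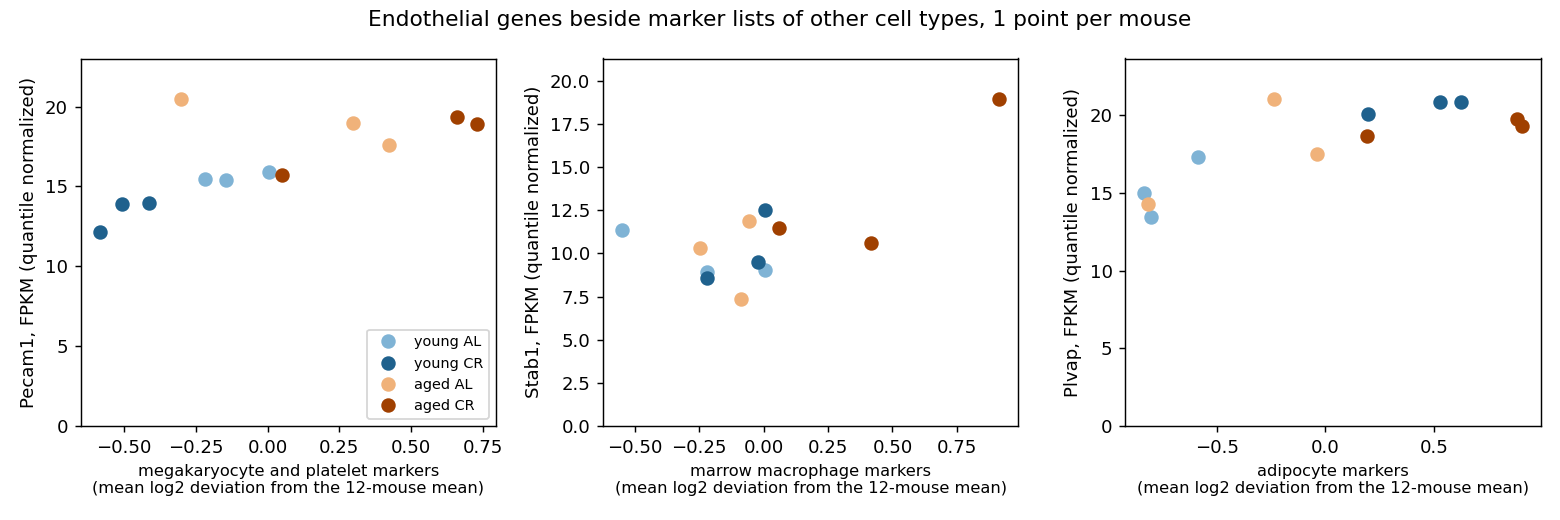
FPKM of Pecam1, Stab1 and Plvap (vertical axes, from 0) in each mouse against the mean log2 deviation of 3 marker lists from their 12-mouse mean, 1 point per mouse coloured by group. Pecam1 and the platelet markers are lowest in the young CR mice, 1 aged CR mouse is highest in both Stab1 and the macrophage markers, and the AL mice with the lowest adipocyte markers have the lowest Plvap.

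With age, Pecam1 was the only one of the 10 genes to be called. It was 17.6, 20.5 and 19.0 FPKM in aged AL mice and 19.4, 15.7 and 18.9 FPKM in aged CR mice, above the young mice on the same diet in each case. The log2 fold change over both diets was 0.34 ± 0.07, a fold of 1.26 (limma, adjusted p = 0.0487), among 0.758% of all genes called for age. Groups that did not overlap on either diet, higher in aged mice, were found for 1.18% of all genes. The call stood close to the threshold and was lost in 12 of 17 alternatives, in which the adjusted p ran from 0.00968 to 0.136. All 12 platelet markers had an unadjusted p under 0.05 and a higher mean in aged mice, by a median log2 fold change of 0.59, and Tubb1 and Gp1ba, a platelet tubulin and a platelet adhesion receptor, were called, each with a call lost in 10 of 17 alternatives. Across the 12 mice Pecam1 had a Pearson r of 0.73 with the list and 0.25 after removal of the group means. The other 9 genes lay between -0.10 for Cdh5 and 0.18 for Stab1, and none was at an unadjusted p under 0.05, against 6.80% of all genes that were higher with age and 9.76% that were lower.

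The wider vessel programme was followed in 6 lists written with earlier results of these mice known. The list of 14 other sinusoidal and scavenger genes had the most differences with diet. Over both ages 7 of 14 were higher by an unadjusted p under 0.05 and none lower, against 7.42% and 6.45% of all tested genes. Of the list, 13 of 14 had a higher mean with CR, and its median log2 fold change was 0.25, against 0.00 over all genes. Maf, a transcription factor of sinusoidal endothelium and of macrophages, was the only one called. It rose from 7.71, 8.03 and 7.81 FPKM in young AL to 10.1, 11.8 and 11.7 FPKM in young CR mice, and from 9.58, 6.83 and 8.50 FPKM in aged AL to 15.0, 12.3 and 13.7 FPKM in aged CR mice. The groups did not overlap at either age, and the log2 fold change over both ages was 0.56 ± 0.08 (limma, adjusted p = 0.0299). The adjusted p ran from 0.00476 to 0.105 over 17 alternatives, and the call was lost in 7 of them.

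Next by p were Cd200, an immune inhibitory surface protein, with 0.64 ± 0.14 (adjusted p = 0.0793) and Gpr182, a scavenger of chemokines in sinusoids, with 0.35 ± 0.08 (adjusted p = 0.0904). Gpr182 was 1.57 to 1.99 FPKM in young AL and 2.55 to 2.91 FPKM in young CR mice. In aged mice it was 1.46 to 2.28 FPKM with AL and 2.40 to 2.78 FPKM with CR. Cd200 was called in 3 of 17 alternatives and Gpr182 in 1. In both genes all CR mice were above all AL mice of the same age. Cd36, a fatty acid transporter also of fat and macrophages, was second in aged mice, with 0.65 ± 0.19 (adjusted p = 0.451). In rising order it was 31.0, 51.8 and 54.9 FPKM with AL, 1 mouse being low, and 65.5 to 73.5 FPKM with CR. Fcgr2b, an inhibitory Fc receptor of sinusoids and of B cells and myeloid cells, was called for age with 0.39 ± 0.07 (adjusted p = 0.0414, lost in 9 of 17 alternatives), but had a difference of -0.03 with diet. Macrophages also express Mrc1, Cd36, Vcam1 and Maf, and their part in these levels was not tested.

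**Figure D5:**
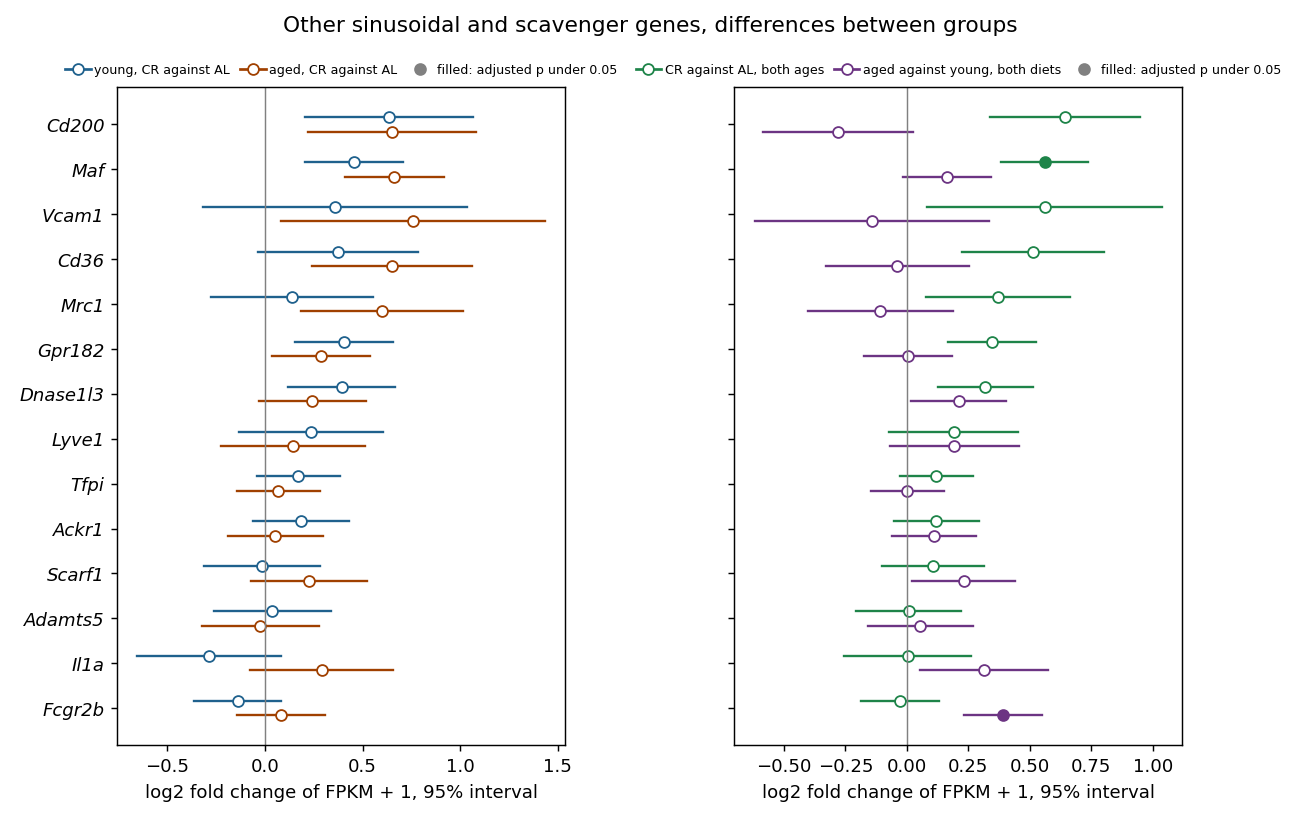
Log2 fold changes of FPKM + 1 with 95% intervals for 14 other sinusoidal and scavenger genes, ordered by the diet effect over both ages, for the diet effect at each age (left) and for diet and age over all 12 mice (right). Filled points, with an adjusted p under 0.05 in limma, are Maf for diet and Fcgr2b for age.

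VEGF ligands and co-receptors, of which 8 of 10 were tested, gave no call. Vegfb, a ligand of Flt1, was 7.56, 9.12 and 8.95 FPKM in young AL and 10.4, 13.1 and 12.4 FPKM in young CR mice, with 0.44 ± 0.12 (adjusted p = 0.234), Sema3f had 0.27 and the co-receptor Nrp1 0.15. In aged mice Vegfc, the ligand of Flt4, had 0.50 ± 0.20 (adjusted p = 0.598), Pgf 0.42 and Nrp1 0.21. With age the smallest p belonged to Sema3f (0.29, adjusted p = 0.152), Vegfa (0.20) and Sema3a (0.32). Of the angiopoietins and Tie receptors, 5 of 7 were tested, none was called and none was at an unadjusted p under 0.05 for diet. Angpt1, a ligand of Tek made by stromal cells and megakaryocytes, had -0.17 with CR in young mice and 0.34 in aged ones, and 0.35 with age (adjusted p = 0.175). Ptprb and Tek in young mice had 0.12 and 0.08.

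Other pan-endothelial markers were tested for 18 of 21 genes. In young mice 4 were higher and none lower by an unadjusted p under 0.05, against 5.79% and 5.24% of all genes. Young groups did not overlap for 2 as higher and for 3, Cd34, Icam2 and Vwf, as lower, against 10.1% and 9.38% of all genes. Over both ages 3 were higher and 2 lower at the unadjusted threshold, against 7.42% and 6.45%. In aged mice none was higher and 1, the stem cell and endothelial sialomucin Cd34, was lower (-0.39, adjusted p = 0.491), against 4.50% and 3.22%. The adhesion protein Mcam was 3.15, 3.56 and 3.53 FPKM in young AL and 5.63, 4.93 and 4.39 FPKM in young CR mice (0.44 ± 0.09, adjusted p = 0.162), whereas its aged groups overlapped. Ramp2, a subunit of the adrenomedullin receptor, and Arhgef15 followed with 0.35 and 0.24. With age Vwf, the clotting protein of endothelium and platelets, came nearest to a call (0.70 ± 0.14, adjusted p = 0.0506). It was called in 7 of 17 alternatives, and its adjusted p over the 17 ran from 0.00363 to 0.145. Of 9 tested arterial and Notch genes none was called for diet and none was at an unadjusted p under 0.05 for it, with medians of -0.02 in young and 0.02 in aged mice. With age Ly6a, which stem and arterial cells share, had 0.96 ± 0.25 (adjusted p = 0.105), and Bmx and Hey1 had -0.32 and -0.29. Of 15 tested endothelial transcription factors none was called. Klf4 and Nr2f2, the venous regulator, had 0.19 and 0.24 with CR in young mice, Elk3 had -0.32 in aged mice, and Epas1, a hypoxia factor, had 0.20 with age.

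The 10 genes did not vary as 1 unit across mice. Plvap, Flt4 and Stab2 had pairwise Pearson r of 0.78 to 0.80 over the 12 mice, and after removal of the group means 0.35 for Plvap with Flt4, 0.64 for Plvap with Stab2 and 0.65 for Flt4 with Stab2. Pecam1 had an r of -0.57 with Cdh5 and -0.54 with Kdr, which were -0.0046 and -0.51 after that removal. Flt1 had -0.16 with Stab2, and -0.78 after it. The genes whose pattern over the 12 mice was most like the mean of the 10 standardized genes were Vat1 (r = 0.94), Mmp19 (0.93), Gm15487 (0.92), Fah (0.91), Plxnd1 (0.91), Rhob (0.90), Robo4 (0.89) and Podn (0.89). Those most opposed were Brip1 (-0.92), Spdl1 (-0.91), Zbtb18 (-0.90) and Fam60a (-0.90). Robo4, itself a vessel receptor, was also the gene most like Stab2 (r = 0.95), and Vegfb the one most like Flt4 (0.90). For Plvap it was Dgat2 (0.92), for Stab1 Scamp5 (0.94), for Kdr Abi3bp (0.93), for Pecam1 Madd (0.95), for Cdh5 Grb14 (0.88), for Emcn Ppp2r2a (0.84), for Flt1 Sbf2 (0.95) and for Sox17 Sdccag3 (0.89). These r were selected from all tested genes, share the normalization and the groups, and are a description.

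Aged AL mouse 14 lay furthest from its group over all genes, with a root mean square log2 distance of 0.435, against 0.243 to 0.378 in the other 11 mice. It was the lowest aged mouse for Plvap, Flt4, Stab1, Stab2, Kdr and Sox17 and the highest of all for Pecam1 and Flt1. When it and aged CR mouse 5 were left out, the aged diet difference was 0.02 for Plvap, 0.07 for Flt4 and 0.10 for Stab2. Over both ages it was 0.22, 0.21 and 0.22 in the same order. The number of genes listed at 0 was 7979 to 8057 in young CR mice, above 7463 to 7648 in young AL mice, and 6856 to 7851 in aged mice. Skeletal muscle markers had a summed level of 177 to 1289 FPKM over the mice. The highest was mouse 14, followed by aged CR mouse 7 at 1071 FPKM. Mouse 14 also had the lowest summed level of 10 osteoblast markers, 629 FPKM. The part of tissue make-up in its values was not tested. The muscle list had an r of -0.06 with Plvap, -0.01 with Flt4 and 0.59 with Pecam1. After removal of the group means these were -0.16, -0.02 and 0.50.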

How the data were processed

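Whole tibiae of 12 mice were sequenced by the authors, 3 per group, with 48 labelled libraries, 4 technical repeats per mouse, and 1 deposited column per mouse. How the repeats were merged is not given in any source used here, and a mouse was counted once. Per the authors, stranded mRNA reads passed quality checks in FastQC 0.11.8 and MultiQC 1.6 and adapter removal in Trim Galore 0.5.0, were mapped to mm10 by STAR 2.6.1, and were turned by StringTie 2.1.3b into FPKM, which were quantile normalized in R 4.1.1 before being deposited. In the table, values of equal rank differed by at most 0.00936 FPKM, so totals are equal by construction. Without counts the depth of each mouse is unknown, and precision here is the spread between mice.

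The test was limma 3.58.1 in R 4.3.3, with prior variance following the mean level, on log2(FPKM + 1) of the 13590 genes that averaged 1 FPKM or more. All 12 mice entered 1 model of 4 group means, from which 5 contrasts were taken: diet at either age, diet averaged over ages, age averaged over diets, and the interaction. Calls needed a Benjamini-Hochberg adjusted p under 0.05 over all tested genes. The study used an unequal-variance test per gene, which is among the alternatives. An exact permutation test of 3 against 3 mice cannot go below 0.1. The code was tested on simulated data.

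The 10 genes and all lists were chosen with earlier results of these data known, so counts over them are descriptions. Named were the 10 genes, up to 3 genes of each list with the smallest p in the comparison described, every called list gene, and the genes most and least like the 10 by Pearson r of log2(FPKM + 1). Genes outside this rule are named as examples of levels, after their values were seen. The level of a list in 1 mouse is averaged over its tested genes, each centred on its 12-mouse mean in log2 units, whereas summed levels use all listed genes. Promoter windows came from RefSeq. Alternatives were a pseudocount of 0.1 FPKM, no filter, size-factor scaling, a quality weight per mouse, fits of only the groups compared, the unequal-variance test, and mice left out.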

Additional observations from a re-analysis of the deposited data

How the results depend on the processing

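Fold changes of the 10 genes and the number called were recomputed under each alternative. The diet differences of Plvap, Flt4, Stab2, Emcn and Flt1 did not turn sign under any alternative at either age. With single mice left out, however, that of Plvap in aged mice ran from 0.0031 to 0.27 and that of Flt4 from 0.09 to 0.21. In the same mice that of Stab2 ran from 0.09 to 0.41, that of Emcn from 0.03 to 0.13 and that of Flt1 from 0.0094 to 0.22. With a quality weight per mouse 1 gene, Plvap, was called in young mice and 1 over both ages. For age the count was 0 without a filter and 0 without aged mice 14 and 5, and it ran from 0 to 1 when single mice were left out. The call of Pecam1 held with young CR mouse 3 or aged CR mouse 6 left out and was lost without any other single mouse. That of Maf for diet was lost when any 1 of the mice 9, 10, 11 (young AL), 2, 3 (young CR) and 7 (aged CR) or the filter was dropped. That of Fcgr2b for age was lost without any 1 of 8 mice or the filter. Each kept its direction throughout. Vwf for age was called in 7 of 17 alternatives, Cd200 for diet in 3, Gpr182 for diet and Ly6a for age in 1 each, and Mcam in young mice in 1 of 19. Over all genes the weighted fit gave the highest counts, 304 against 9 in young mice, 193 against 0 in aged mice, 923 against 35 for diet, 1798 against 103 for age and 1 against 0 for the interaction. The lowest counts were 0, 0, 8 (without aged CR mouse 7), 21 (without young CR mouse 2) and 0 in the same order. The cause of these changes was not tested.

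Signs turned only for differences that were not called. With the quality weight they were 0.0043 for Pecam1 in aged mice, -0.028 for Kdr and -0.0064 for Sox17 over both ages, and 0.028 for Kdr with age. Without aged mice 14 and 5 they were -0.0033 for Stab1 in aged mice, -0.00389 for Kdr over both ages, 0.00827 for Kdr with age and -0.055 for the interaction of Stab1. With single mice left out, young differences ran from -0.092 to 0.16 for Stab1 and from -0.22 to 0.15 for Sox17. Aged ones ran from -0.12 to 0.082 for Kdr, -0.13 to 0.012 for Pecam1 and -0.0012 to 0.10 for Cdh5. Over both ages they ran from -0.016 to 0.085 for Kdr and -0.033 to 0.15 for Sox17. With age they ran from -0.019 to 0.11 for Plvap, -0.0062 to 0.051 for Flt4 and -0.038 to 0.12 for Stab2, and the interaction from -0.25 to 0.070 for Stab2 and -0.081 to 0.13 for Flt1.

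No paired analysis was possible because the numbers the groups share are technical repeats of single mice, merged into 1 column, and mouse numbers differ between groups. Without read counts, low genes such as Sox17 and Flt1 have an unknown counting error.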
